A study of Rattus norvegicus with 30 samples.

Results

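Card9 and 8 genes that work with it in innate immune signaling, Bcl10, Malt1, Clec7a, Syk, Ripk2, Nod1, Nod2 and Pycard, were examined in the hearts of female and male rats. Card9 was chosen because its level differed between the sexes in adult rats of 21 weeks, so its 21-week values are given as a description with no test. The other 8 genes were chosen by pathway. Of the 9 genes, 6 had rows in the deposited tables, 8 rows in each table among 23268, 23227 and 22458 gene names at 8, 21 and 78 weeks. Nod2 had a probe on the array under its older name Card15 and no table row, which gave 7 genes with 9 probes of 41012 probes that are not controls. No probe was matched to Clec7a or Nod1, and both are not analysed here.

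The rats were untreated Fischer 344 (F344) animals, an inbred strain, with 5 females and 5 males at each of 3 ages. Rats of 8 weeks are called young here, those of 21 weeks adult and those of 78 weeks old. Total RNA of the whole heart of each rat was labeled with Cy3 and hybridized to 1 array of the Agilent rat design. Both sexes of an age lay on the same slides, but females were at array positions 2 and 4 and males at positions 1 and 3, so that sex and array position cannot be told apart. All 13 cardiomyocyte markers examined were well above background on at least 5 of the 10 arrays of each age. The study kept the sexes of an age in the same batch and the ages in different batches. In whole heart RNA, fewer cells of a type and less RNA per cell cannot be told apart.

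CARD9 is a scaffold protein of myeloid cells (macrophages, monocytes, neutrophils and dendritic cells). Lectin receptors that recognize fungal cell walls, such as dectin-1 (Clec7a), signal through the kinase SYK to CARD9, which binds BCL10 and MALT1 and leads to NF-kappaB activation and cytokine production. The intracellular sensors NOD1 and NOD2 signal through the kinase RIPK2, with which CARD9 also cooperates, and PYCARD (ASC) is the adaptor that joins inflammasome sensors to caspase-1.

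Card9 was measured by 1 probe, A_42_P678430, so no other probe of the gene was at hand to compare with it. Its sequence is shown because every Card9 value rests on it, and that of the brighter Pycard probe, A_44_P226597, because it had the lowest 21-week difference among the 7 probes of the other genes tested. Both are printed in lower case, 5′ to 3′, as the scanner files give them.
Card9 probe: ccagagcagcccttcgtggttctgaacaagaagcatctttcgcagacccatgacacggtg
Pycard probe: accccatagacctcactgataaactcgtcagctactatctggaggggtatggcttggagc
The files place the Card9 probe on the reverse strand of the rn3 rat assembly at chr3:4525163-4525641, a span of 479 bases for a probe of 60 bases, and the Pycard probe on the reverse strand at chr1:187426802-187426861. No gene annotation of that assembly was used here, so exons and introns are not given. No probe of the 7 genes shared 20 consecutive bases, on either strand, with another probe of the array. The GC content of the Card9 probe was 55%, at the 95th percentile of all probes (55%, median 43.33%).

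Levels are given as log2 of the background-subtracted signal over the 75th percentile of its array, and differences as female minus male on that scale. The Card9 probe was well above background on 30 of 30 arrays. In young rats the level of Card9 in females 1 to 5 was 0.89, 1.43, 1.27, 1.27 and 1.22, with a mean of 1.22 ± 0.20 (SD, n = 5). In young males 1 to 5 it was 0.95, 1.17, 1.13, 1.40 and 1.44, also with a mean of 1.22 ± 0.20 (SD, n = 5). The sexes overlapped throughout, and the difference was -0.002 (95% interval -0.29 to 0.28, limma adjusted p = 0.999).

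In adult rats females 1 to 5 had 2.34, 2.18, 2.06, 2.14 and 2.65, with a mean of 2.27 ± 0.23 (SD, n = 5). Adult males 1 to 5 had 3.53, 4.09, 3.56, 3.38 and 3.87, with a mean of 3.68 ± 0.29 (SD, n = 5). All 5 adult males lay above all 5 females, by 2.66-fold on average (-1.41 ± 0.18, SE), and this gap chose the gene. It ranked 57th of 41004 probes by size of difference, and the 13th among 15181 probes well above background on all 10 arrays. With the slides taken one at a time the difference was -1.55 (2 rats of each sex), -1.37 (2 of each) and -1.22 (1 of each).

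Array brightness varied among the adult rats. The 75th percentile of the signal was 82.7 to 123.1 in adult females, and 103.3, 39.9, 104.8, 65.6 and 72.1 in adult males 1 to 5. The median difference over all probes was -0.23 at 21 weeks (0.03 at 8 and 0.01 at 78 weeks), -0.02 under quantile normalization, and -0.07 over probes well above background on all 10 arrays. Relative to the median of all probes, the Card9 difference was -1.18 on the 75th percentile scale and -1.36 under quantile normalization. The part of array brightness in the Card9 difference was not tested. Normexp background correction with an offset of 50 reduced the difference to -0.79, or 1.73-fold. The median of all probes was -0.32 under that correction, and relative to it the Card9 difference was -0.47. The other alternatives, the authors' own table among them, gave -1.42 to -1.29, and leaving out 1 rat at a time gave -1.50 to -1.31.

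In old rats the order of the sexes was the other way around and small. Females 1 to 5 had Card9 levels of 3.06, 3.32, 2.84, 3.49 and 2.79, with a mean of 3.10 ± 0.30 (SD, n = 5). Males 1 to 5 had 2.96, 3.06, 2.65, 3.04 and 2.89, with a mean of 2.92 ± 0.16 (SD, n = 5). The groups overlapped, and the difference of 0.18 (95% interval -0.16 to 0.52) did not pass the test (limma adjusted p = 0.931, exact permutation p = 0.270). Under normexp correction it was -0.24. On 2 old arrays, labeled female 2 and male 3, the Y-linked genes Ddx3y and Eif2s3y did not match the labeled sex. Without both arrays the Card9 difference was 0.06. The probe of Uty, the other Y-linked gene read, was higher in females at 8 and 21 weeks (0.77 and 0.99). It did not mark males as Ddx3y and Eif2s3y did.

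**Figure D1:**
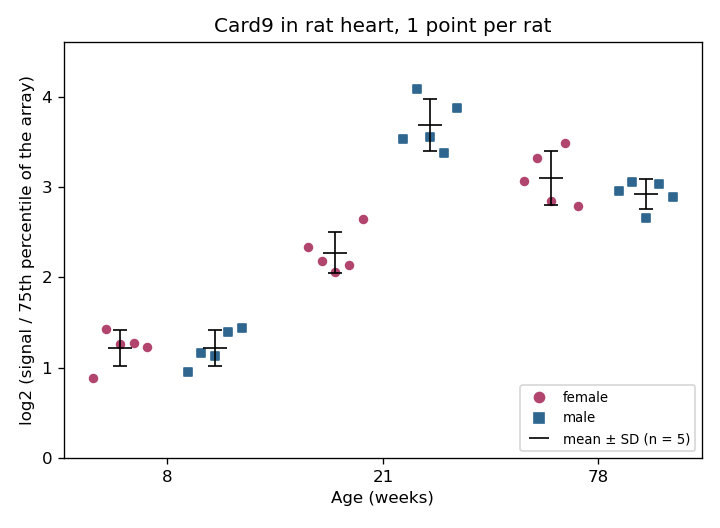
Level of Card9 (vertical axis, log2 of signal over the array's 75th percentile) against age (horizontal axis, weeks) with 1 point per rat, females as circles and males as squares, and bars for the mean ± SD of 5 rats. The adult males (3.38 to 4.09) lie above the adult females (2.06 to 2.65), while the sexes overlap in young and old rats.

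Over the 6 groups the mean Card9 level ran in the order young females, young males, adult females, old males, old females and adult males. Young females and young males overlapped, as did old males with old females and old females with adult males. Between young males (highest 1.44) and adult females (lowest 2.06), and between adult females (highest 2.649) and old males (lowest 2.654), no values overlapped. The value of 2.654 came from old male 3, whose Y-linked genes did not match its label. In females the mean was 1.06 higher at 21 than at 8 weeks and a further 0.83 higher at 78 weeks. In males it was 2.47 higher at 21 than at 8 weeks and then 0.76 lower at 78 weeks (-0.76). The mean of both sexes was 1.79 higher in old than in young rats on the log2 scale, and of 14882 probes detected above background on every array 22 had a larger difference. For the 7 probes of the pathway genes the difference between old and young rats ran from -0.31 (Syk) to 0.22 (the dimmer Pycard probe). Age and batch cannot be told apart in these arrays, since the study kept the ages in different batches. One slide held 1 young and 1 old rat of each sex. On it the old female was 1.84 above the young female and the old male 1.52 above the young male. A shared slide does not separate age from those batches.

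Syk encodes the kinase between the lectin receptors and CARD9. Its probe was well above background on all arrays except that of adult male 2. In adult rats the mean level was -1.29 ± 0.14 in females and -1.55 ± 0.37 in males (SD, n = 5), a difference of 0.26 in the direction opposite to Card9 that did not pass the test (adjusted p = 0.428). In young rats it was -0.19 (adjusted p = 0.927).

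In old rats Syk had levels of -2.12, -1.59, -1.72, -2.59 and -1.59 in females 1 to 5 and of -1.09, -1.33, -1.57, -0.60 and -1.38 in males 1 to 5. All 5 old males lay above all 5 females, by 1.66-fold on average (-0.73 ± 0.24, SE), with the labels as given. Female 4 had the lowest level, and without this rat the difference was -0.56. The lowest male value, -1.57, and the highest female value, -1.59, came from male 3 and female 2, the 2 arrays whose Y-linked genes did not match their label, so the order at the edge rests on them. At the level of the single gene the exact permutation test gave p = 0.00794, the smallest that 5 rats against 5 can give, whereas limma over all probes gave p = 0.011 unadjusted and an adjusted p of 0.931. No label pairs the rats, but same-numbered old rats deviated alike (r of 0.22 to 0.35) and shared a slide. Taken as 5 pairs, all with the lower Syk level in the female, the exact test gave p = 0.0625. That is the smallest that 5 pairs can give and is past no threshold. The mismatched arrays, female 2 and male 3, lie in different pairs. Within slides the difference was -1.03 (1 rat of each sex), -0.21 (2 of each) and -1.10 (2 of each). The slide with -0.21 carried both mismatched arrays, and without these the difference was -0.91 (adjusted p = 0.519), again with no overlap. Raw median signals reduced it to -0.40 and normexp correction to -0.16, both with overlap. The sex difference of Syk in old rats was 0.99 lower than that in adult rats, which did not pass the test over all probes either (adjusted p = 0.216).

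Bcl10 encodes the adaptor that CARD9 binds directly. Its probe was well above background on all 30 arrays. In adult rats females 1 to 5 had 3.12, 3.10, 3.00, 3.25 and 3.31 and males 1 to 5 had 3.01, 3.19, 3.25, 3.13 and 3.40, so that the sexes overlapped. The sex difference was -0.001 at 8 weeks (95% interval -0.15 to 0.15), -0.04 at 21 weeks (-0.34 to 0.27) and -0.02 at 78 weeks (-0.21 to 0.18), with adjusted p-values of 0.874 to 0.999. Normexp correction turned the 21-week difference to 0.50.

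Malt1 encodes the paracaspase of the CARD9-BCL10-MALT1 complex. It was dim, well above background on all young arrays, on 2 of 5 female and 2 of 5 male adult arrays, and on all old arrays except that of female 1. The differences were -0.19, 0.22 and -0.29 at 8, 21 and 78 weeks, none past the test (adjusted p = 0.479 to 0.931). The old rats ranged from -3.70 to -2.17 in females and from -2.70 to -2.39 in males. Without the 2 mismatched arrays the old males all lay above the old females for Malt1 also, beside 5.21% of all probes without overlap in that smaller comparison of 4 rats against 4.

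**Figure D2:**
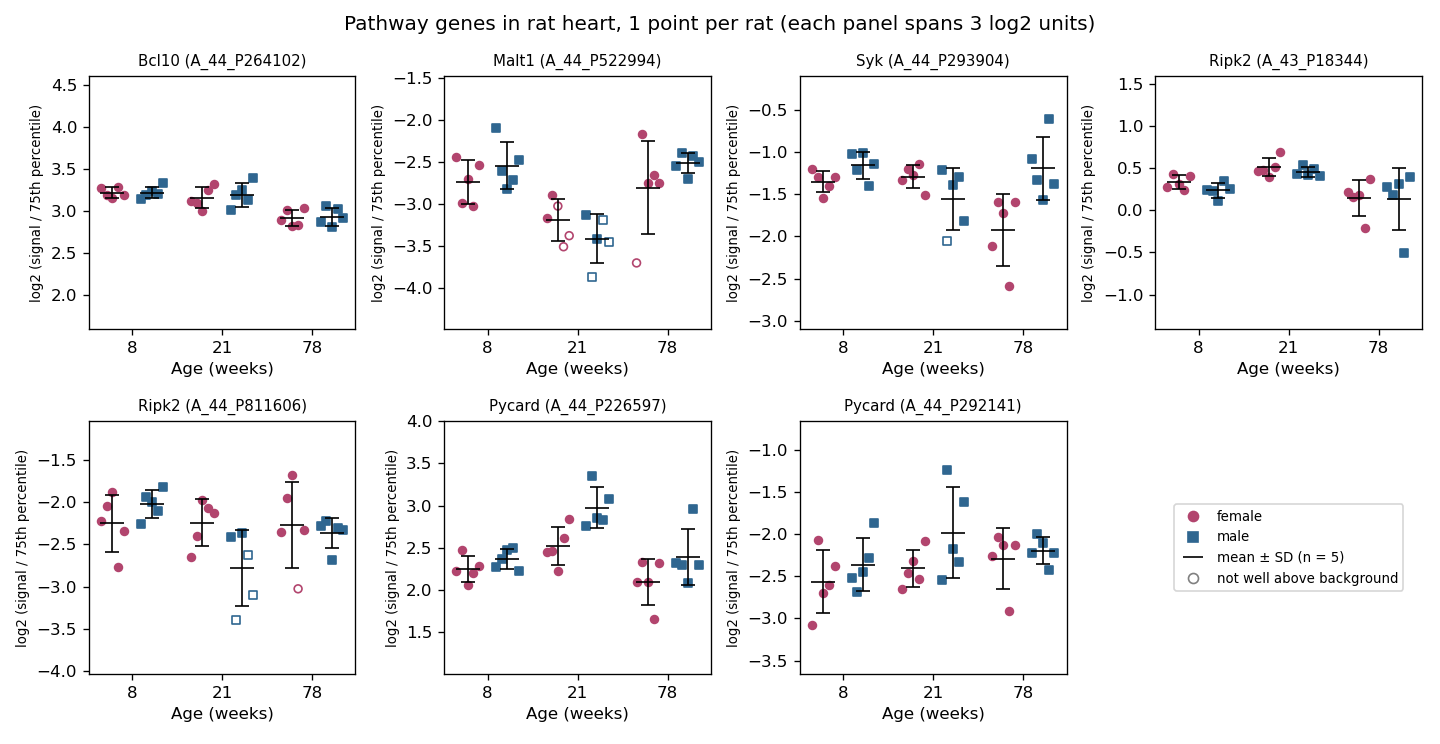
Levels of the 7 probes of Bcl10, Malt1, Syk, Ripk2 and Pycard (vertical axes, log2 of signal over the 75th percentile, each panel spanning 3 log2 units) against age in weeks, 1 point per rat, open where the probe was not well above background, with bars for the mean ± SD of 5 rats. By their labels the sexes overlap in every panel and age except Syk in old rats.

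Ripk2 encodes the kinase of the NOD pathway and was read by 2 probes. The brighter probe, A_43_P18344, had levels of 0.40 to 0.68 in adult females and 0.40 to 0.53 in adult males, and its difference was 0.10, 0.06 and 0.01 at 8, 21 and 78 weeks (adjusted p = 0.799 to 0.992). The dimmer probe, A_44_P811606, had -2.65, -2.40, -1.97, -2.06 and -2.12 in adult females 1 to 5 and -2.41, -3.40, -2.37, -2.63 and -3.10 in adult males 1 to 5. Only 2 of the 5 adult male arrays were well above background for it. Its difference of 0.54 was higher in females (limma unadjusted p = 0.041, adjusted p = 0.366, exact permutation p = 0.063) and turned to -0.23 under normexp correction. The 2 probes therefore gave different sizes at 21 weeks, and neither was higher in males on the 75th percentile scale. The Nod2 probe was not well above background on any of the 30 arrays, and no fold is given.

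Pycard encodes the inflammasome adaptor, and both of its probes had higher adult means in males. Its brighter probe, A_44_P226597, was well above background on all 30 arrays. Adult females 1 to 5 had 2.45, 2.47, 2.23, 2.61 and 2.84 and adult males 1 to 5 had 2.76, 3.35, 2.86, 2.83 and 3.08. Of the adult males 3 lay above all females, and female 5 lay above 2 males. The difference was -0.46 ± 0.17 (SE), 1.37-fold, with an exact permutation p = 0.024 and a limma unadjusted p of 0.023 that did not hold after adjustment over all probes (adjusted p = 0.363). Relative to the median of all probes it was -0.22. Quantile normalization gave -0.43 with no overlap of the sexes, raw median signals -0.13, and normexp correction 0.28 in the other direction. Relative to the median of all probes in the same setting, these were -0.41, 0.12 and 0.60.

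The second Pycard probe, A_44_P292141, was dimmer, and the files list it on the forward strand while RefSeq (GRCr8) places the gene on the reverse strand. Its adult difference was -0.42 ± 0.25 (SE, adjusted p = 0.382), with males from -2.54 to -1.24 and females from -2.65 to -2.08. The highest value came from male 2, the dimmest array, and without it the difference was -0.24. Both Pycard probes were also lower in females at 8 weeks (-0.11 and -0.20) and 78 weeks (-0.29 and -0.10), none past the test (adjusted p = 0.927 to 0.937).

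**Figure D3:**
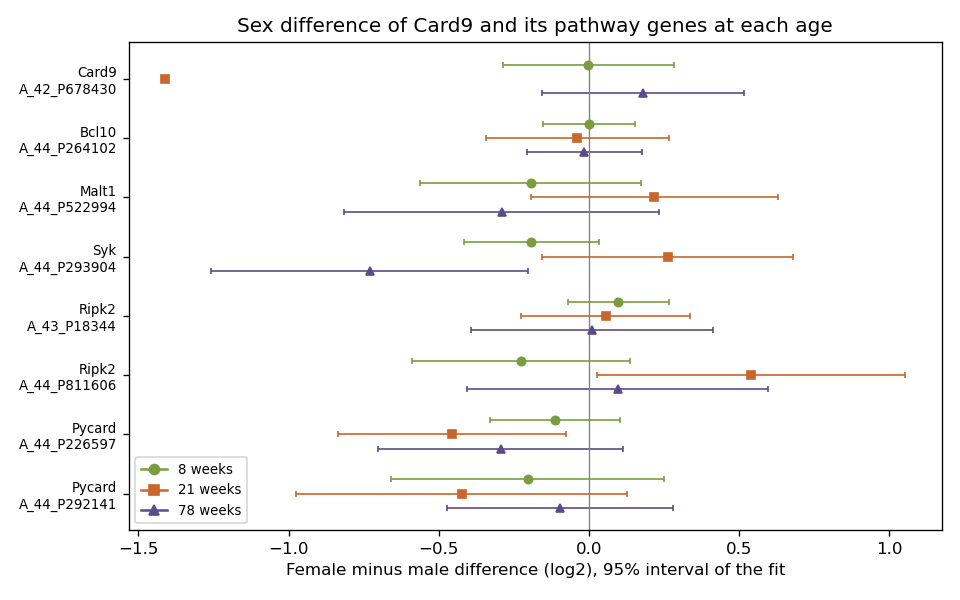
Female minus male difference (horizontal axis, log2) of the probes of Card9 and of 5 pathway genes at 8 (circles), 21 (squares) and 78 weeks (triangles), with the 95% interval of the limma fit except for Card9 at 21 weeks, which is a description only. Card9 at 21 weeks lies at -1.41, the value for which it was chosen, and the other 7 probes at 21 weeks lie between -0.46 and 0.54.

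The 21-week Card9 difference was thus compared with 7 probes of 5 pathway genes. None of them had an adjusted p under 0.05 (0.0317% of all probes did), none was without overlap of the sexes (3.41% of all probes were), and 2 had an unadjusted p under 0.05 (13.5% of all probes), Pycard higher in males and the dimmer Ripk2 probe higher in females. In simulated 21-week data 0 of 50 changes of 0.5, placed in probes drawn at random, reached an adjusted p under 0.05. The test could hardly call differences of this size in such probes. Its power for these 7 probes, with their own spreads, was not tested. Higher levels in males were found for 3 of the 7 probes and in females for 4, with a median difference of 0.06, while 70.4% of all probes were higher in males. In young rats 0 of these 7 probes had an unadjusted p under 0.05 (4.28% of all probes), an adjusted p under 0.05 (0.0659%) or no overlap (1.18%), and 6 of the 7 had higher means in males, as had 42.5% of all probes. In old rats 1 of 7, Syk, had an unadjusted p under 0.05 (4.59%) and no overlap (0.775%), 5 of the 7 had higher means in males (47.1%), and none of 41006 probes had an adjusted p under 0.05 by limma, with 1883 at an unadjusted p under 0.05.

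The wider pathway was read from lists of genes, each with its brightest probe. No gene of the 6 pathway lists had an adjusted p under 0.05 in limma at any age; at 21 weeks 16 of 103 genes (15.5%) had an unadjusted p under 0.05, beside 13.5% of all probes, and 7 of 103 (6.80%) were without overlap, beside 3.41%. Card9 and Syk are described above and are in none of these lists. Over all probes at 21 weeks 70.4% were higher in males, and the median difference was -0.23. Among 16 upstream lectin receptor and kinase genes at 21 weeks, 11 were higher in males and the median difference was -0.15. Only Vav2, a guanine nucleotide exchange factor, was without overlap, with a level of 3.17 ± 0.10 in females and 2.85 ± 0.20 in males (SD, n = 5; adjusted p = 0.37). Among 15 genes of the CARD scaffold family and its adaptors, 10 were higher in males with a median of -0.13, and none was without overlap. Of 11 NOD pathway genes 6 were higher in females, with a median of 0.05 (-0.03 under normexp correction) and none without overlap. In young rats Birc3, an inhibitor of apoptosis that takes part in NOD signaling, was without overlap at -0.89 ± 0.10 in females and -0.65 ± 0.08 in males (adjusted p = 0.93).

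The inflammasome list, which holds Pycard, had 21 of 25 genes higher in adult males (70.4% of all probes) and a median of -0.36, against -0.23 over all probes. Under quantile normalization it was -0.23 against -0.02, and under normexp -0.25 against -0.32. Only 14 of the 25 were well above background on at least 5 of the 10 adult arrays. Casp12, an inflammatory caspase, had -0.17 ± 0.11 in females and 0.15 ± 0.15 in males (SD, n = 5; adjusted p = 0.37) and did not overlap. Txnip, the thioredoxin-interacting protein that binds NLRP3, ran the other way without overlap, at 2.19 ± 0.29 in females and 1.68 ± 0.26 in males (adjusted p = 0.36), and it was 0.89 higher in young females also (adjusted p = 0.20). Casp1, the caspase that Pycard recruits, was named after its values were seen and had 0.54 ± 0.17 in females and 0.99 ± 0.24 in males, with overlap (adjusted p = 0.36). In young rats Casp4, an inflammatory caspase, was without overlap at 0.21 ± 0.08 in females and 0.43 ± 0.06 in males, and so was Nek7, a kinase that binds NLRP3, at 4.16 ± 0.05 and 4.01 ± 0.03 (adjusted p = 0.93 for both). In old rats 0 of the 103 genes was without overlap (0.775% of all probes), and 8 were without the 2 mismatched arrays (5.21%).

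Downstream, 10 of 18 genes of the NF-kappaB and MAP kinase core were higher in adult females, with a median of 0.02 (-0.07 over the 8 that the authors' table holds). Jun, a subunit of the AP-1 transcription factor, was without overlap (4.64 ± 0.19 against 4.17 ± 0.12, SD, n = 5; adjusted p = 0.36), and so was the NF-kappaB subunit Nfkb2 (1.60 ± 0.09 against 1.47 ± 0.04; adjusted p = 0.53), both with the higher mean in females. In young rats the subunit Rel was without overlap, at -3.72 ± 0.19 in females and -3.32 ± 0.14 in males (adjusted p = 0.80), with 1 of 5 female arrays well above background. Of 19 cytokine outputs 15 were higher in males (70.4% of all probes), with a median of -0.37 and 9 of the 19 well above background on at least 5 arrays. The chemokine Ccl3 had 0.33 ± 0.27 in females and 1.00 ± 0.22 in males, without overlap (adjusted p = 0.36), and Il23a, also without overlap, was not well above background on any adult array.

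**Figure D4:**
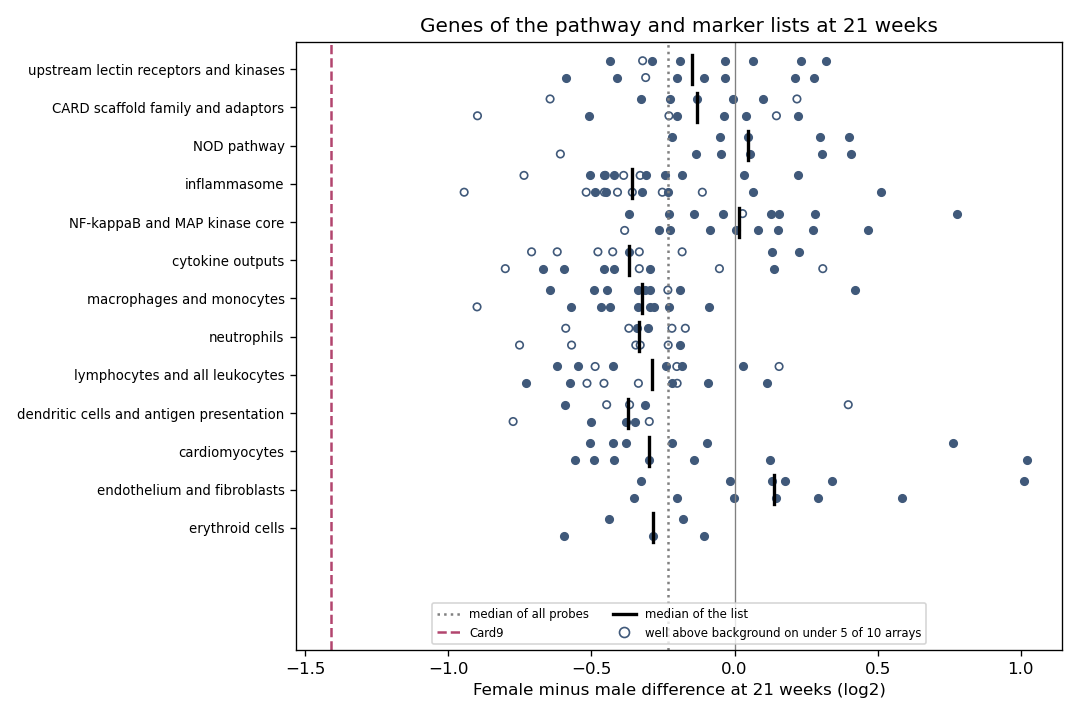
Female minus male difference at 21 weeks (horizontal axis, log2) of each gene of the pathway and cell marker lists (rows), 1 point per gene, open where the probe was well above background on fewer than 5 of the 10 arrays, with a bar for the median of each list, a dotted line for the median of all probes (-0.23) and a dashed line for Card9 (-1.41). No listed gene lies as far to the male side as Card9, and the lowest is at -0.94.

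Most markers of the cells that express Card9 had higher mean levels in males at 21 weeks, by less than Card9 and with no marker at an adjusted p under 0.05. Of all probes 70.4% were higher in adult males and 3.41% were without overlap. Of 18 macrophage and monocyte markers 17 were higher in adult males, with a median of -0.33. Under normexp correction 9 of the 18 were, with a median of 0.06. The summed level (linear scale) of the 16 of these markers that had a value on every array ran from 71.7 to 108.1 in females and from 89.3 to 139.3 in males. Laptm5, a lysosomal membrane protein of hematopoietic cells, was without overlap but had a value for only 2 rats of each sex after outlier spots were dropped. All 12 neutrophil markers were higher in males with a median of -0.33, of which 3 were well above background on at least 5 arrays, and under quantile normalization 6 of the 12 were higher. Their summed level ran from 1.73 to 2.45 in females and from 1.56 to 4.34 in males. Of 18 lymphocyte and leukocyte markers 15 were higher in males (median -0.29), with Lck and Klrd1, genes of T and NK cells, without overlap. The same held for 9 of 10 markers of dendritic cells and antigen presentation (median -0.37) and for all 5 erythroid markers (median -0.29, but 0.07 under normexp). Cardiomyocyte markers had a median of -0.30 that turned to 0.06 under quantile normalization and 0.26 under normexp, and endothelial and fibroblast markers had one of 0.14 (-0.02 over the 7 in the authors' table). Of the endothelial and fibroblast markers Kdr was without overlap and 1.01 higher in females, with a value for only 3 females and 2 males. Dcn was without overlap the other way (-0.33). The part of any of these cells in the Card9 difference was not tested.

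In old rats, by their labels, 17 of 18 macrophage and monocyte markers were again higher in males (median -0.41, beside 47.1% of all probes). The Card9 difference in old rats was 0.18, or 0.06 without the 2 mismatched arrays and -0.24 under normexp correction. Adgre1, which encodes the macrophage marker F4/80, was without overlap at -0.38 ± 0.31 in females and 0.22 ± 0.21 in males (SD, n = 5; adjusted p = 0.93). The hemoglobin scavenger receptor gene Cd163 was also without overlap, at -1.53 ± 0.61 and -0.93 ± 0.10 (adjusted p = 0.93), so that 2 of the 18 did not overlap, beside 0.775% of all probes. The summed level of the 16 complete markers ran from 52.2 to 82.7 in old females (median 77.3) and from 77.6 to 112.2 in old males (median 96.6). Without the 2 mismatched arrays all 18 were higher in males (median -0.52), and the summed level ran from 52.2 to 82.7 in females and from 90.4 to 112.2 in males, without overlap. In that comparison the differences of Adgre1 and Cd163 were -0.70 (adjusted p = 0.50) and -0.68 (adjusted p = 0.74). The excess in old males was not particular to macrophage markers. With all old arrays kept, 9 of 10 dendritic cell and antigen presentation markers (median -0.41) and 14 of 18 lymphocyte and leukocyte markers (-0.39) were higher in males. So were 19 of 25 inflammasome genes (-0.24) and 10 of 12 endothelial and fibroblast markers (-0.11). Of neutrophil markers 6 of 12 were (0.02), and of cardiomyocyte markers 3 of 13 (0.07).

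Genes beside Card9 on chromosome 3 did not show a difference of its size. Of the 3 genes on each side in RefSeq (GRCr8) 5 had 10 probes, and 1 of these, listed on another chromosome for Entr1, was not well above background on any adult array. The differences of the other 9 at 21 weeks ran from -0.43 to 0.17, all with overlap of the sexes and adjusted p-values of 0.36 to 0.99. The largest was for a probe of Gpsm1, a G-protein signaling modulator, at -0.43, with -0.38, -0.01 and -0.25 for its other 3 probes.

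Likeness to Card9 was measured as Pearson's r over the 30 arrays after each age's mean was subtracted, among 20367 probes. These values are a description, since the arrays share the 21-week sex gap. The highest were 0.86 for the transcript TC525200, 0.84 for the transcript BI294198, 0.84 for Mtfp1, a protein of mitochondrial fission, 0.83 for Dcun1d1, a component of cullin neddylation, and 0.82 for the unnamed probe A_44_P660551. The 21-week differences of these 5 probes were -1.18, -0.37, -0.64, -0.51 and -0.53. The lowest were -0.85 for the leptin receptor gene Lepr and -0.84 for a probe that RefSeq names Frrs1l and the array Epb4.1l4b, with 21-week differences of 0.85 and 0.84, and -0.84 for the splicing factor gene Sfpq (0.46). Of the pathway genes, r was 0.52 and 0.49 for the Pycard probes, 0.26 for Bcl10, -0.15 and -0.51 for the Ripk2 probes, -0.30 for Malt1 and -0.43 for Syk. With the mean of each sex and age subtracted instead, which removes the sex gap, r was 0.33 and 0.43 for the Pycard probes, 0.36 for Bcl10, -0.15 and -0.33 for the Ripk2 probes, -0.21 for Malt1 and -0.50 for Syk.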

How the data were processed

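The authors scanned 1-colour Agilent arrays and processed them with Agilent Feature Extraction (version 9.5.1.1 per the file headers); the deposited scanner files hold 45018 spots with linear intensity values. The deposited table of each age holds a ratio, the authors' signal over a 75th percentile, 1 row per probe with repeated gene names. Its 21-week male columns name the group only, so single rats were taken from the scanner files.

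From these, spots of a probe were averaged without outlier flags, divided by the array's 75th percentile over probes that are not controls, and put on the log2 scale. Females and males of an age were compared with limma 3.58.1 in R 4.3.3, two-sided, with Benjamini-Hochberg adjustment over all probes, and single genes also with an exact permutation test. The fit was tested on simulated data. P-values measure the spread between 5 rats, and arrays limit precision by their number.

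The genes and lists were chosen with earlier results of these data known. List genes named, Casp1 aside, were from those with an adjusted p under 0.05, then those without overlap, at most 6 per list and age. Not every gene that met this rule is named. Card9 neighbours and likeness followed fixed numbers. Scaling, background correction, filter, slide and replicate blocks, the methods' t-test and left-out rats were varied. Replicate numbers were checked by correlating same-numbered rats' deviations: -0.26 to 0.16 at 8, -0.17 to 0.56 at 21 and 0.22 to 0.35 at 78 weeks. At 78 weeks every pair exceeded 0.1, so numbers were taken as pairs in old rats only. No label gives such pairs. Same-numbered arrays lay side by side on a slide, so that pair and place on the slide cannot be told apart.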

Additional observations from a re-analysis of the deposited data

Results flagged for a closer look

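Within groups of 5 rats, 6 of 89 groups tested held 1 value far from the other 4 by Dixon's gap, where chance alone gives about 1 in 20. In old rats, male 4 was low for the brighter Ripk2 probe, A_43_P18344, at -0.50 against 0.17 to 0.40 in the other males. The same male was high for the brighter Pycard probe, A_44_P226597, at 2.96 against 2.09 to 2.32, and without it the old Pycard difference was -0.15 instead of -0.29. Old male 3, whose Y-linked genes did not match its label, was low for the dimmer Ripk2 probe, A_44_P811606, at -2.68 against -2.32 to -2.22. Old female 4 was low for the dimmer Pycard probe, A_44_P292141, at -2.91 against -2.26 to -2.03. Nek7 (A_43_P10988) was lowest in young male 3, at 3.96 against 4.02 to 4.03, and Vav2 (A_44_P876363) in adult male 2, the dimmest array, at 2.50 against 2.86 to 3.00. The causes were not tested.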

How the results depend on the processing

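No alternative, and no rat left out, brought a probe of Bcl10, Malt1, Syk, Ripk2 or Pycard past an adjusted p of 0.05. Card9 at 21 weeks stayed lower in females throughout (-1.50 to -1.31 with 1 rat left out), and normexp correction moved it to -0.79. At 8 weeks Card9 ranged from -0.068 to 0.080 with 1 rat left out, and at 78 weeks normexp gave -0.24. Directions turned as follows, each from a difference not past the test. Normexp turned Bcl10 to 0.030 at 8 and 0.50 at 21 weeks, Malt1 to -0.26 at 21 and 0.068 at 78, Syk to -0.13 and the dimmer Ripk2 probe to -0.23 at 21, the brighter Pycard probe to 0.28 at 21 and the dimmer one to 0.073 at 78 weeks. Raw median signals turned Bcl10 to 0.055 at 8 and 0.14 at 21 weeks, Malt1 to -0.16 and Syk to -0.047 at 21. At 8 weeks the mean of both Ripk2 probes was 0.048, a turn against the dimmer probe (-0.23) but not against the brighter probe (0.098). The brighter Ripk2 probe at 78 weeks was -0.0086 in the authors' table and -0.037 with the percentile over probes well above background. Without the 2 mismatched old arrays the dimmer Ripk2 probe was -0.064. With 1 rat left out (or, at 78 weeks, both mismatched arrays) Bcl10 ran from -0.020 to 0.027, -0.085 to 0.012 and -0.071 to 0.015 at 8, 21 and 78 weeks, and at 78 weeks the brighter Ripk2 probe from -0.15 to 0.10, the dimmer one from -0.064 to 0.28 and the dimmer Pycard probe from -0.16 to 0.060.

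Counts of all probes with an adjusted p under 0.05 moved more. At 8 weeks 27 became 41 with the filter on dim probes, 9 with the slide block, 11 with 1 fit of the 6 groups, and 8 to 21 with 1 rat left out. At 21 weeks 13 became 123 with raw median signals, 1 with normexp, 30 with the filter, 6 with the slide block, 8 with the methods' t-test, 2048 with 1 fit of the 6 groups, whose spread is shared with the other ages, and 7 to 13 with 1 rat left out. At 78 weeks 0 became 1 with 1 fit and 10 without the mismatched arrays, and with 1 rat or these arrays left out it was 0 to 10. The replicate block gave 5 probes at 8 weeks and 4 at 21 weeks, where the numbers were not taken as pairs. In limma it changed no call of the genes described here, at 78 weeks included. The exact test of Syk at 78 weeks, taken within pairs after the data were seen, moved from 0.00794 to 0.0625, and no other gene's exact call changed with it. Non-overlapping probes of the other genes were 1 instead of 0 at 21 weeks under quantile normalization, under the percentile over bright probes and without female 5 (0 to 1 over left-out rats), each time Pycard. Those with an unadjusted p under 0.05 at 21 weeks were 0 instead of 2 with raw median signals and with normexp, 1 with the methods' t-test and 0 to 3 over left-out rats. At 78 weeks they were 0 instead of 1 with raw median signals and with normexp, and 2 without the mismatched arrays (1 to 2 over left-out rats). Genes of the 6 pathway lists with an adjusted p under 0.05 were 4 instead of 0 at 21 weeks with 1 fit, and 1 at 8 weeks with normexp and with raw median signals, and those with an unadjusted p under 0.05 at 21 weeks ran from 7 (normexp) to 30 (raw median signals). The causes were not tested. The filter on dim probes gave no value for Malt1 at 21 weeks.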
